A study of Mus musculus with 14 samples.

Results

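The let-7 family was followed through 9 probes of a microRNA array, the ones whose printed name includes the mouse name of let-7b, let-7c, let-7d, let-7d*, let-7e, let-7f, let-7g, let-7i or miR-98, out of 343 mouse miRNA probes on each array. The star marks the opposite arm of the let-7d hairpin. The study profiled adherent peritoneal macrophages of BALB/c mice on 14 arrays in 4 groups: nematode IL-4R KO (4 arrays), nematode wild type (4), thioglycollate IL-4R KO (3) and thioglycollate wild type (3). IL-4R KO mice lack the receptor for IL-4, a cytokine that drives alternative activation of macrophages, as IL-13 does through the same chain. Nematode cells were collected 21 days after Brugia malayi, a filarial worm, was implanted into the peritoneum, and thioglycollate cells 3 days after that sterile irritant was injected, so the time after the stimulus differs along with the stimulus. All cells were selected by adherence to plastic and were over 80% positive for the macrophage markers F4/80 and CD11b, which leaves a share of other cells. The labels do not say that the arrays of a group came from separate animals, so a p-value below speaks of variation among these samples only, part of which may be technical. The array carries no probe for the receptor mRNA, and the knockout was not checked here.

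let-7 was first found as a gene that times larval development in the worm Caenorhabditis elegans, and mammals carry many copies of it. A mature miRNA guides the silencing complex to mRNAs that pair with its seed, bases 2 to 8 from the 5′ end, so members with the same seed can share targets, among them Hmga2 and Ras mRNAs. LIN28 proteins block the maturation of let-7 precursors in stem cells, and differentiated cells usually hold high levels of the family. In immune cells let-7 is known for repressing cytokine mRNAs, including IL-6 and, in mouse T cells, IL-13, and let-7i for repressing the receptor TLR4 in human cholangiocytes.

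All 9 members were matched to a mature sequence in RefSeq (GRCm38.p6), at 11 loci. They are shown because the probes have to tell apart molecules that differ by very few bases. Capitals mark the seed.
let-7b: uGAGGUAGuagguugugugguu
let-7c: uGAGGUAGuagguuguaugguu
let-7d: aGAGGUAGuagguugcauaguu
let-7e: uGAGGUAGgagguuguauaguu
let-7f: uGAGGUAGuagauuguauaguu
let-7g: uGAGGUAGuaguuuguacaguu
let-7i: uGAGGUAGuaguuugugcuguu
miR-98: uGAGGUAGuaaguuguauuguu
let-7d*: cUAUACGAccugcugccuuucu

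In 8 of the 9 the seed was the same, and let-7d* had another. Relative to let-7c, with positions counted from 1 at the 5′ end, let-7b differs at 1 base (A17G), let-7e at 2 (U9G and G19A), let-7f at 2 (G12A and G19A), miR-98 at 2 (G11A and G19U), let-7d at 3 (U1A, U16C and G19A), let-7g at 3 (G12U, U18C and G19A) and let-7i at 4 (G12U, A17G, U18C and G19U). The array probes are antisense oligonucleotides with locked nucleic acids, a modification that sharpens pairing. Cross-hybridisation between such close sequences was not tested, and each value below belongs to a probe.

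The genes lie in several clusters. On chromosome 15, let-7c-2 (chr15:85706616-85706637, plus strand) lies 709 bases from let-7b (chr15:85707325-85707346, plus strand), both within the span of the long noncoding RNA gene Lncppara. The other let-7c copy lies at chr16:77599672-77599693 (plus strand). On chromosome 13, let-7d (chr13:48536078-48536099, minus strand) and its star arm (chr13:48536024-48536045) come from 1 hairpin, and let-7f-1 (chr13:48537889-48537910, minus strand) starts 1811 bases from let-7d. On the X chromosome, let-7f-2 (chrX:151912353-151912374, plus strand) and miR-98 (chrX:151913229-151913250, plus strand) lie 876 bases apart within the span of Huwe1, a ubiquitin ligase gene. let-7e lies at chr17:17830366-17830387 (plus strand) within the span of Spaca6, let-7g at chr9:106178846-106178867 (plus strand) within that of Wdr82, and let-7i at chr10:122985698-122985719 (minus strand) outside any other annotated gene. The let-7c and let-7f probes cannot tell apart the copies of each, whose mature sequences are identical.

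The arrays differed in quality. The 95th percentile of net signal (foreground minus local background) over blank and negative control spots ran from 12.6 to 111 intensity units, and a probe is called above blanks where it passes that percentile of its own array. Nematode wild type replicate 4 stood apart. It correlated with its group at 0.82 on average (0.90 to 0.97 for the remaining 13), its blank percentile was the 111 units, and 1 of the 9 members was above blanks on it, against 5 to 9 members on the other arrays. It gave the lowest of 14 log2 intensities for let-7b, let-7d, let-7d*, let-7f, let-7g and let-7i, and the highest for let-7c. For the 5 brighter members, a difference within 1 genotype or 1 elicitation that it moves by over 1.5 times is also given without it. The macrophage and myeloid markers fixed for this work were all (6 of 6) above blanks on at least 1 array of every group. Their summed net signals were 5322 to 8926 units on nematode IL-4R KO arrays and 4148 to 8008 on nematode wild type arrays. They were 10860 to 11510 on thioglycollate IL-4R KO and 6973 to 11250 on thioglycollate wild type arrays. In bulk RNA, fewer cells of a type and less RNA per cell cannot be told apart.

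The brighter probes were let-7b, let-7c, let-7d, let-7g and let-7i. Of these, let-7b, let-7d, let-7g and let-7i were above blanks on 13 of 14 arrays and let-7c on all 14. The remaining 4 were near the blank spots, with let-7f and miR-98 above them on 6 arrays, let-7d* on 5 and let-7e on 4. Median net signals over the 14 arrays were 310.6 units for let-7c, 262 for let-7i, 178 for let-7b, 125.4 for let-7d and 79.3 for let-7g, and 18.8 to 30.2 for the other 4. Probes differ in how strongly they bind, so this is the order of probe brightness and not of the amounts of the miRNAs. The spread within groups, as a pooled SD on the log2 scale, ran from 0.14 for let-7e to 0.64 for let-7i.

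**Figure D1:**
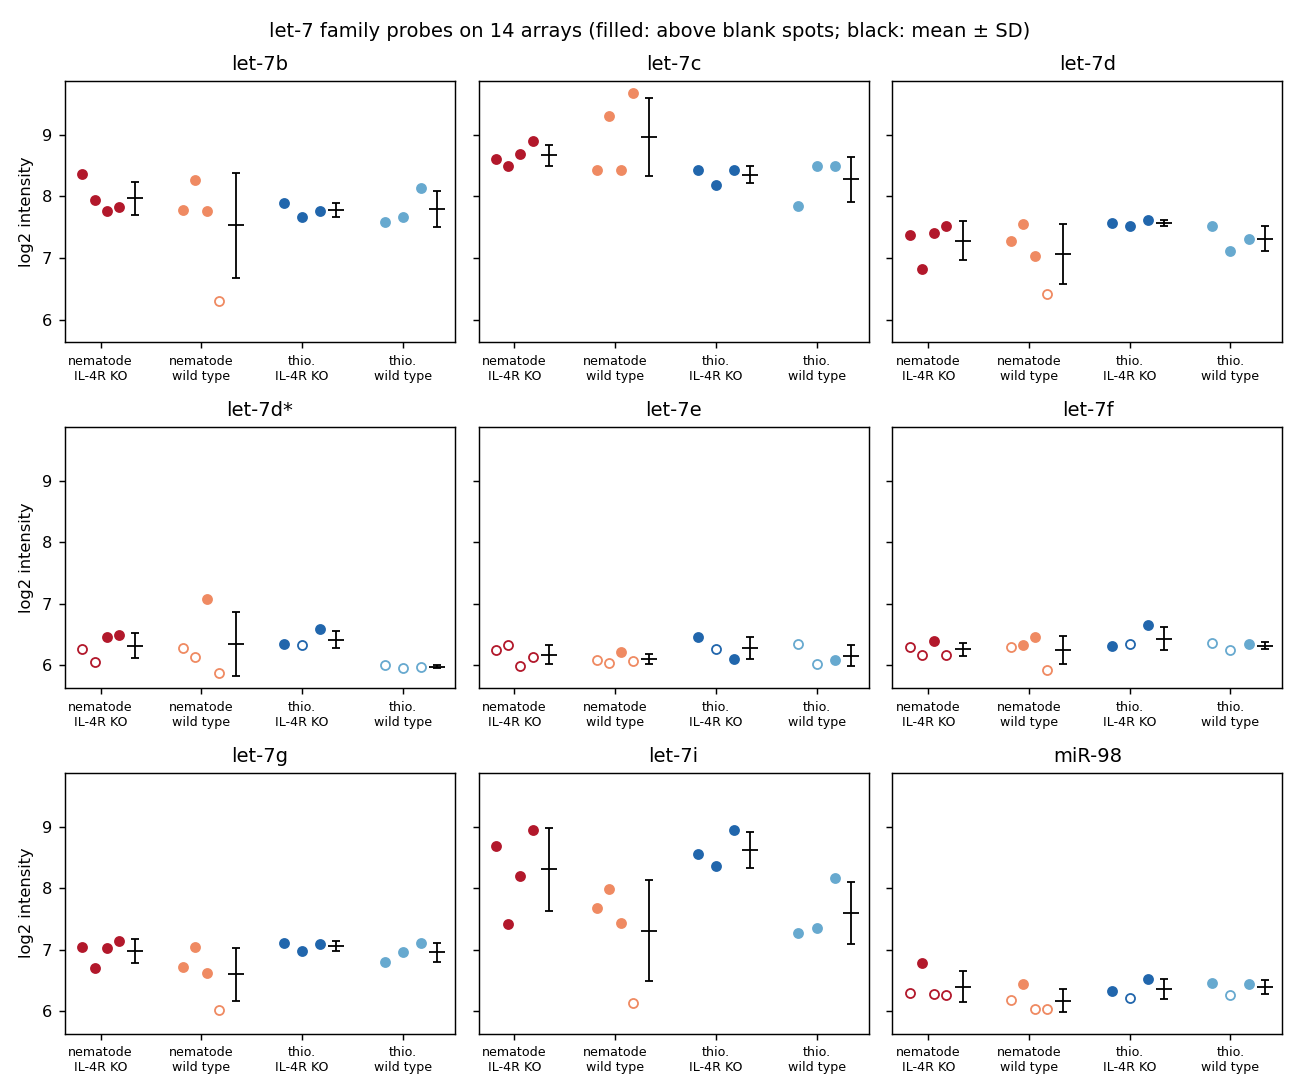
Log2 intensity (vertical axis) of each let-7 family probe on 14 arrays by group (horizontal axis; thio., thioglycollate). Filled points were above blank spots, open points were not, and black marks give the group mean ± SD (n = 4, 4, 3 and 3). let-7i is higher in IL-4R KO than in wild type on average in both elicitations, at 8.31 against 7.31 and 8.62 against 7.60, and the low open point of let-7b, let-7d, let-7g and let-7i in nematode wild type is replicate 4.

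The comparison of IL-4R KO with wild type asks whether family members depend on the receptor. None of the 9 members passed the test (limma, adjusted p under 0.05 over all 343 mouse probes), after nematode elicitation, where 1.75% of all probes passed, after thioglycollate, where 0.292% did, or averaged over both, where 3.5% did. The count at an unadjusted p under 0.05 was 1 member in each of these, let-7i every time, against 12.5%, 4.08% and 9.62% of all probes. The members' median log2 fold change was 0.22 after nematode and 0.12 after thioglycollate, with 2 of 9 negative in each, against medians of 0.00 over all probes, of which 48.4% and 50.1% were negative. The lean to positive values after nematode rested on 1 array: with nematode wild type replicate 4 left out the median there was 0.03, with 4 of 9 negative. On all arrays cyclic loess gave a median of 0.08 and median scaling 0.20, each with 7 of 9 positive. After thioglycollate median scaling gave a median of 0.34, with 9 of 9 positive. Groups did not overlap for 0 members after nematode and for 2, let-7d* and let-7i, after thioglycollate, where that held for 9.04% and 11.1% of all probes. Without nematode wild type replicate 4 the count of members that passed was also 0 in each comparison, while the count of all probes after nematode was 12 in place of 6.

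let-7i had the largest genotype difference of the 9. After nematode elicitation its log2 intensities were 8.68, 7.41, 8.19 and 8.94 on IL-4R KO arrays, against 7.68, 7.99, 7.44 and 6.13 on wild type arrays. Among the IL-4R KO arrays, 3 were above every wild type array, and replicate 2 was below 3 of the wild type ones. After thioglycollate they were 8.55, 8.36 and 8.94 on IL-4R KO arrays, against 7.27, 7.35 and 8.17 on wild type arrays, and these groups did not overlap.

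The genotype difference of let-7i, about the same in both elicitations, did not pass. Its log2 fold change, IL-4R KO minus wild type, was 1.00 after nematode (SE 0.40, limma adjusted p = 0.291) and 1.02 after thioglycollate (SE 0.47, limma adjusted p = 1). As folds these are 2.00 and 2.03. The group means were 8.31 ± 0.67 in IL-4R KO and 7.31 ± 0.82 in wild type after nematode (SD, n = 4 each), and 8.62 ± 0.30 in IL-4R KO and 7.60 ± 0.50 in wild type after thioglycollate (SD, n = 3 each). Averaged over elicitations it was 1.01 (SE 0.31, 95% confidence interval 0.34 to 1.68, limma unadjusted p = 0.00633, adjusted p = 0.136). The difference of the 2 effects was -0.03, with a 95% confidence interval of -1.36 to 1.31 that leaves room for large differences either way.

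The averaged value lay between 0.85 and 1.38 under 24 other settings and was past the threshold in 2 of them, cyclic loess normalization (0.91, limma adjusted p = 0.0178) and without nematode IL-4R KO replicate 2 (1.17, limma adjusted p = 0.0441). Without nematode wild type replicate 4 it was 0.85 (limma adjusted p = 0.116), and the value after nematode alone was 0.63 (limma adjusted p = 0.523). Slide 12 is the only slide with arrays of both genotypes, 1 of each after thioglycollate, and on it let-7i was 8.55 in IL-4R KO and 8.17 in wild type, a difference of 0.38. All other slides hold 1 group each, and slides were scanned group after group, so for them slide and group cannot be told apart. Of 4 lymphocyte markers, 1 passed as higher in IL-4R KO after nematode, where 1.75% of all probes passed. All 4 were positive there, with a median log2 fold change of 0.13. Their summed net signal was 170 to 255 units on IL-4R KO arrays and 67.4 to 116 on wild type arrays. In both groups 3 of 4 markers were above blanks on at least 1 array. After thioglycollate the sum was 118 to 166 units in IL-4R KO and 92.6 to 184 in wild type. The median log2 fold change of the markers was -0.10 there, with 3 of 4 negative. Of 6 macrophage and myeloid markers, 1 passed as lower in IL-4R KO after nematode, where 1.75% of all probes passed. The median log2 fold change of these 6 was 0.09, with 4 positive. After thioglycollate 0 of the 6 passed, where 0.292% of all probes did, and their median was -0.24, with 4 negative. The part of either marker list in the let-7i values was not tested.

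**Figure D2:**
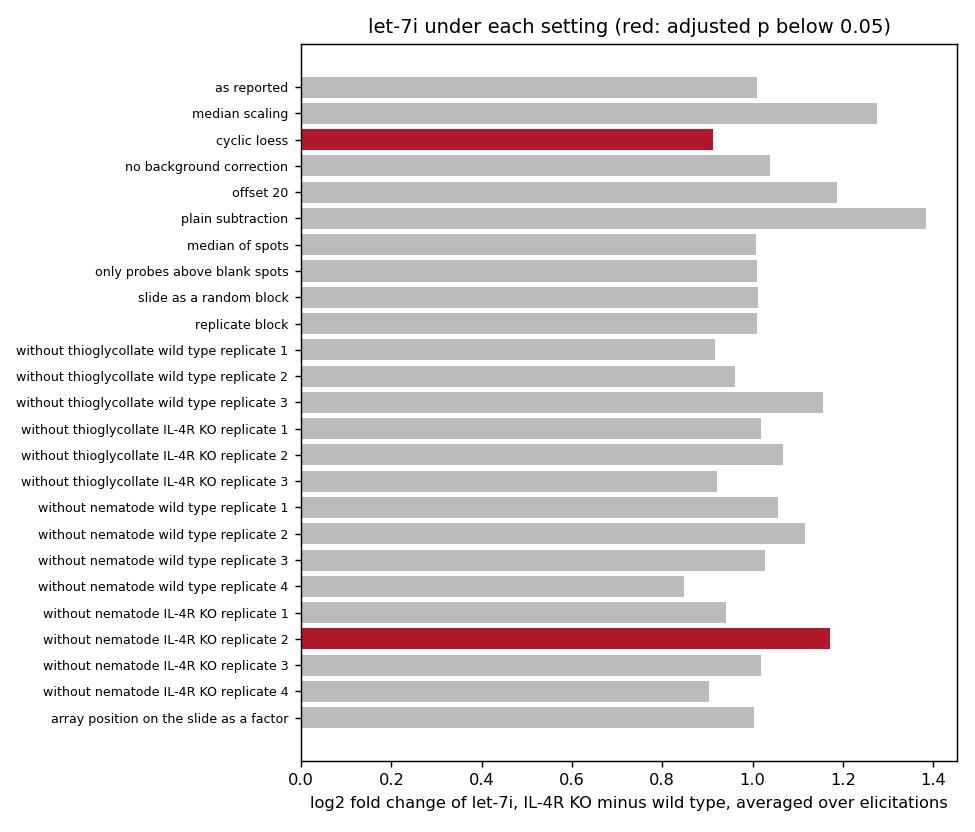
Log2 fold change of let-7i, IL-4R KO minus wild type averaged over elicitations (horizontal axis), as reported and under each of 24 other settings (vertical axis), with bars in red where the limma adjusted p was below 0.05. All bars lie between 0.85 and 1.38, and 2 of the alternatives passed.

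let-7g, which differs from let-7i at 2 bases, followed it over arrays with a smaller difference. Its log2 intensities after nematode were 7.05, 6.70, 7.03 and 7.15 on IL-4R KO arrays and 6.72, 7.05, 6.62 and 6.02 on wild type arrays, which overlapped. The log2 fold change was 0.38 (SE 0.18, limma adjusted p = 0.411), and 0.19 without nematode wild type replicate 4. Under 25 other settings it lay between 0.19 and 0.88 and did not pass. After thioglycollate it was 0.10 (SE 0.21), with 7.11, 6.97 and 7.09 in IL-4R KO and 6.80, 6.96 and 7.11 in wild type.

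let-7b and let-7d gave positive differences after nematode that rested on 1 array. let-7b was at 8.36, 7.94, 7.76 and 7.83 on IL-4R KO arrays and 7.79, 8.28, 7.76 and 6.30 on wild type arrays (log2 fold change 0.44, SE 0.33, limma adjusted p = 0.575). let-7d was at 7.38, 6.82, 7.41 and 7.52 on IL-4R KO arrays and 7.27, 7.55, 7.03 and 6.41 on wild type arrays (log2 fold change 0.22, SE 0.22, limma adjusted p = 0.660). Without replicate 4 of the wild type these were 0.03 and -0.0009. After thioglycollate let-7b gave -0.02 (SE 0.38) and let-7d 0.25 (SE 0.25), and with median scaling of the arrays in place of quantile normalization let-7b gave 0.34.

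let-7c was the one bright member with a negative difference after nematode. Its log2 intensities were 8.60, 8.49, 8.68 and 8.90 on IL-4R KO arrays and 8.43, 9.31, 8.43 and 9.68 on wild type arrays. The wild type arrays lay on both sides of the IL-4R KO range, and the log2 fold change was -0.30 (SE 0.26, limma adjusted p = 0.627), or -0.06 without wild type replicate 4. After thioglycollate it was 0.08 (SE 0.30).

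Among the dim members, let-7d* had groups that did not overlap after thioglycollate, at 6.35, 6.33 and 6.59 on IL-4R KO arrays and 6.00, 5.96 and 5.97 on wild type arrays. It was above blanks on 2 of 3 IL-4R KO and 0 of 3 wild type arrays, so wild type has only a bound. Set against the lowest signal above blanks on those arrays, the IL-4R KO mean of let-7d* was 1.05-fold higher (limma adjusted p = 1). That mean includes IL-4R KO replicate 2, itself below blanks, so the fold is not a firm lower bound. The fitted difference, 0.44 on the log2 scale (SE 0.24), has no firm size, since plain subtraction of the background gave 1.53. After nematode let-7d* gave -0.03 (SE 0.20), with its highest value of all 14 arrays, 7.09, in wild type replicate 3. The 3 spots there disagreed, at net signals of 209, 10.1 and 23.2 units. The difference turned to 0.13 with the median of spots and to 0.22 without that array. let-7e, let-7f and miR-98 gave genotype differences of -0.04 to 0.23 on the log2 scale in both elicitations. The 0.23 was miR-98 after nematode, which was 0.09 without IL-4R KO replicate 2, where 1 of its 3 spots was far above the others. let-7e was above blanks on 0 of 4 nematode IL-4R KO arrays and 1 of 4 nematode wild type arrays, so that its 0.07 there is a difference between signals near blank.

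**Figure D3:**
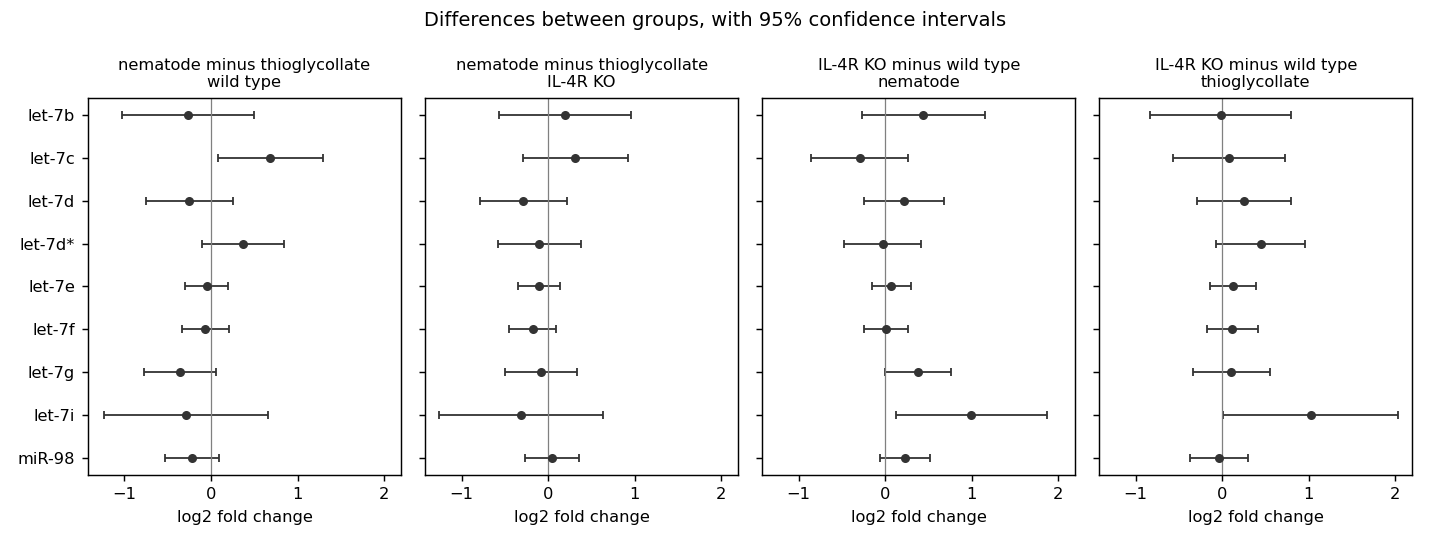
Log2 fold change with its 95% confidence interval (horizontal axes) of each let-7 family probe (vertical axis) in 4 comparisons, each a difference between the group means of the limma fit. Of the 36 intervals, those of let-7c in the first panel and of let-7i in the last 2 panels do not cover 0, and no member passed after adjustment over 343 probes.

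The comparison of nematode with thioglycollate asks how the family differs between cells drawn by the parasite and cells drawn by the irritant. None of the 9 members passed (limma, adjusted p under 0.05), in wild type, where 0.875% of all probes passed, in IL-4R KO, where 1.46% did, or averaged over genotypes, where 2.92% did. At an unadjusted p under 0.05 there was 1 member in wild type and 1 in the average, let-7c both times, and 0 in IL-4R KO, against 10.8%, 13.4% and 9.62% of all probes. The median over members was -0.22 in wild type and -0.10 in IL-4R KO, with 7 and 6 of 9 negative, against -0.02 and -0.04 over all probes, of which 53.6% and 58.9% were negative. Groups did not overlap for 0 members in wild type and for 1, let-7c, in IL-4R KO, where that held for 7.87% and 15.7% of all probes. The lean to negative values in wild type depended on the scaling and on 1 array. With median scaling the members' median was 0.16 with 5 of 9 positive, and with cyclic loess 0.01 with 5 of 9 positive. With nematode wild type replicate 4 left out the wild type median was 0.04, with 5 of 9 positive. In that fit 0 members passed in either genotype or in the average, while the counts of all probes were 8, 8 and 17 in place of 3, 5 and 10.

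let-7c had the largest positive elicitation difference of the 9, in each genotype and in the average. Its log2 intensities in wild type were 8.43, 9.31, 8.43 and 9.68 after nematode and 7.85, 8.49 and 8.49 after thioglycollate, with overlap. In IL-4R KO they were 8.60, 8.49, 8.68 and 8.90 after nematode and 8.43, 8.19 and 8.43 after thioglycollate, without overlap. The log2 fold change was 0.69 in wild type (SE 0.28, limma adjusted p = 0.421), 0.32 in IL-4R KO (SE 0.28, limma adjusted p = 0.797) and 0.50 averaged over genotypes (SE 0.20, 95% confidence interval 0.08 to 0.93, limma adjusted p = 0.248). Without nematode wild type replicate 4, whose let-7c was the highest of all, the values in wild type and in the average were 0.47 and 0.40. Under all 24 settings the averaged value stayed positive, between 0.34 and 0.63, and did not pass.

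let-7b, the neighbour of let-7c on chromosome 15 that differs from it at 1 base, gave -0.26 in wild type (SE 0.35) and 0.20 in IL-4R KO (SE 0.35). In wild type the sign turned to 0.15 without replicate 4 of the nematode group and to 0.22 with median scaling. let-7i gave -0.29 in wild type (SE 0.44) and -0.31 in IL-4R KO (SE 0.44), and in wild type it also turned, to 0.11 without that array and 0.16 with median scaling. let-7g gave -0.36 (SE 0.19, limma adjusted p = 0.556) in wild type and -0.08 (SE 0.19) in IL-4R KO. The wild type value was -0.17 without that array and -0.09 with median scaling. It was larger in size with offset 20, at -0.52, and with plain subtraction, at -0.82, and did not pass.

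let-7d gave -0.25 in wild type (SE 0.23) and -0.29 in IL-4R KO (SE 0.23), and its star arm 0.37 (SE 0.22) and -0.10 (SE 0.22). The wild type value of let-7d was -0.03 without nematode wild type replicate 4, and turned to 0.17 with median scaling. In wild type let-7d* was above blanks on 1 of 4 nematode arrays and 0 of 3 thioglycollate arrays. Its nematode mean, which includes arrays below blanks, was 1.00-fold of the lowest signal above blanks on the thioglycollate arrays (limma adjusted p = 0.605). This leaves no difference to report. The 0.37 was 0.13 without nematode wild type replicate 3. let-7e, let-7f and miR-98 gave -0.22 to 0.05 in both genotypes. The interaction of genotype and elicitation gave values of -0.47 to 0.46 over the 9 members, 0 of which passed and 0 of which had an unadjusted p under 0.05, where 0.583% and 6.71% of all probes did.

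Members that lie in 1 cluster or hairpin were compared directly, through the difference of the pair within each array. The pairs fixed for this, with both factors, make 8 tests, by an exact two-sided permutation within the other factor. None passed after Benjamini-Hochberg adjustment over the 8. let-7d minus let-7d*, the arms of 1 hairpin, gave -0.40 between elicitations (exact p = 0.0514, adjusted p = 0.411), and 0.03 between genotypes (exact p = 0.890). The elicitation value was smaller in size under some settings, at -0.11 with median scaling, -0.21 with cyclic loess and -0.24 with the median of spots. It was larger under others, at -0.54 with offset 20, -0.57 with no background correction and -0.73 with plain subtraction. Leaving out 1 array at a time gave values between 2 ends. Without nematode wild type replicate 2 it was -0.51 (exact permutation, adjusted p = 0.0571). Without nematode wild type replicate 3, where the let-7d* spots disagreed, it was -0.28 (exact permutation, adjusted p = 0.406). let-7d* was above blanks on 5 of the 14 arrays. let-7b minus let-7c gave -0.53 between elicitations (exact p = 0.193, adjusted p = 0.514) and 0.32 between genotypes (exact p = 0.533, adjusted p = 0.853). Leaving out nematode wild type replicate 4 gave -0.22 and -0.003 for these. let-7d minus let-7f gave -0.15 and 0.17, and let-7f minus miR-98 gave -0.04 and -0.03, for elicitation and genotype in that order (exact p from 0.193 to 0.791). The spread of these pairs left differences of this size undetected in either direction.

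The members did not move as 1 block over the arrays. Pearson correlations of log2 intensity over 14 arrays, given as a description, ran highest for let-7g with let-7i (0.89), let-7d with let-7g (0.87), let-7d with let-7i (0.82) and let-7b with let-7g (0.81). Of the 36 pairs, 7 reached 0.6. let-7c was negative with all 8 other members, down to -0.58 with let-7f. The 2 arrays of a slide share a scan, all 14 were normalized together, and they fall into 4 groups. Much of the pattern of correlations came from 1 array. Without nematode wild type replicate 4, over 13 arrays, let-7b with let-7c was 0.62 in place of -0.39, and let-7c was negative with 2 of 8 members, let-7e and let-7f. The pairs among let-7d, let-7g and let-7i were at 0.70, 0.66 and 0.80 (let-7d with let-7g, let-7d with let-7i, let-7g with let-7i), and these 3 were the pairs at 0.6 or more both with and without that array. They come from chromosomes 13, 9 and 10. let-7d and its star arm gave 0.27 over 14 arrays and 0.02 over 13.

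**Figure D4:**
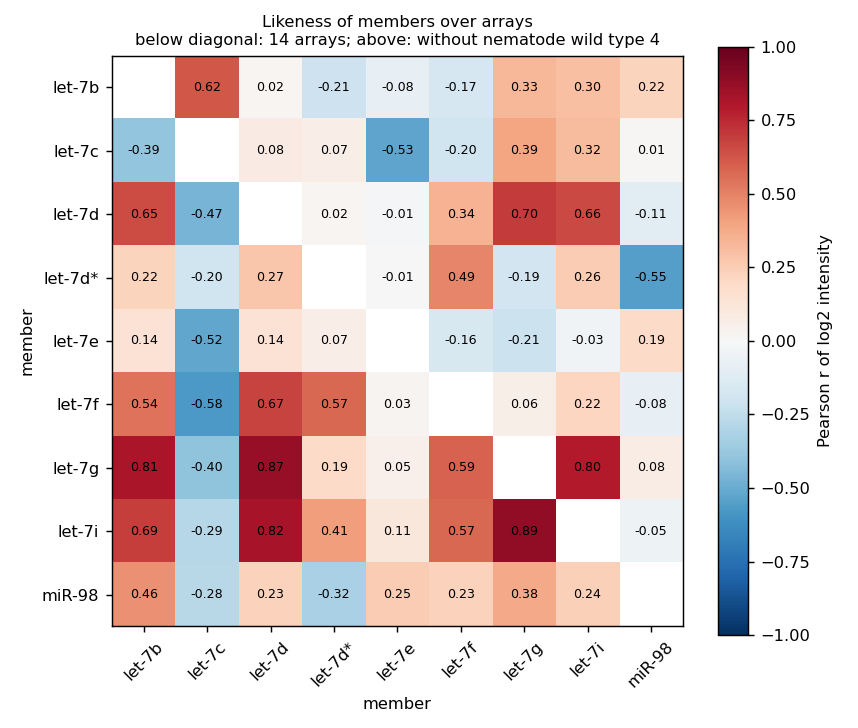
Pearson correlation of log2 intensity between let-7 family probes (both axes), over 14 arrays below the diagonal and over 13 arrays, without nematode wild type replicate 4, above it. The cell of let-7b and let-7c turns from -0.39 to 0.62, while let-7g with let-7i stays at 0.89 and 0.80.

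The mouse probes most like the mean standardised profile of the 9 members, among 221 probes outside the family that were above blanks on at least 3 arrays, were miR-17-5p (r = 0.89), miR-691 (0.87), miR-20a (0.86), miR-30e (0.86) and miR-125a (0.85) over 14 arrays. Without nematode wild type replicate 4 the 5 most alike were miR-361 (0.85), miR-30e (0.79), miR-351 (0.79), miR-301 (0.74) and miR-19b (0.74), so 1 of the 5, miR-30e, was in both lists.

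let-7 loci in mammals are joined to miRNAs of the miR-99, miR-100 and miR-125 families. Of those 5 partners 1 passed between genotypes after nematode, where 1.75% of all probes did. miR-125b, which lies in clusters with let-7c and miR-99a and with miR-100, fell in IL-4R KO relative to wild type after nematode (log2 fold change -1.29, SE 0.14, limma adjusted p = 0.000136). There let-7c gave -0.30, or -0.06 without nematode wild type replicate 4. The values of the partners are given with that array included only. miR-99a (-0.68, SE 0.17, limma adjusted p = 0.0588) and miR-100 (-0.56, SE 0.13, limma adjusted p = 0.0566) did not pass. miR-125a gave 0.64 (SE 0.19, limma adjusted p = 0.117) and miR-99b 0.27 (SE 0.10), the partners of let-7e, which gave 0.07 near blank. After thioglycollate 0 of the 5 passed, where 0.292% of all probes did. There miR-125b gave -0.53 (SE 0.16), in the same direction as after nematode. Averaged over elicitations it passed, at -0.91 (SE 0.11, limma adjusted p = 0.000417), where 3.5% of all probes did. The interaction of genotype and elicitation for miR-125b was -0.765 (SE 0.21, limma adjusted p = 0.211) and did not pass. Between elicitations 0 of the 5 passed in wild type or in IL-4R KO, where 0.875% and 1.46% of all probes did. As other families of related sequence, the 7 miR-30 and the 7 miR-15/16 probes had 0 members past the threshold in any comparison. Over all probes 0.292% to 3.5% passed per comparison, so these counts are no result about the 2 families.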

How the data were processed

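The deposited slide files give foreground and local background intensity per spot on a linear scale, neither subtracted nor normalized by the authors, per the file headers. The authors' deposited value table equals foreground minus background within 0.001. The arrays (miRCURY LNA) carry 1 colour, the dye Hy3, per the labels' protocols. Each member has 3 spots. The steps here were normexp background correction (offset 50), log2, the mean of a probe's spots, and quantile normalization across arrays of every probe that names a miRNA. The offset compresses fold changes of dim probes. The means of 4 groups over 14 arrays were fitted with limma 3.58.1 in R 4.3.3 (lmFit, eBayes), with Benjamini-Hochberg adjustment over 343 mouse probes and a threshold of 0.05. The fit was tested on simulated data. The number of arrays limits the precision.

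A member below the 95th percentile of blank and negative control spots on every array of a group has only a bound there, and its fold is taken against a floor in the dimmer group, on each array the lowest signal that passed the blanks or the member's own signal, whichever was higher. The brighter group keeps its own signals, also those below blanks. Values are nematode minus thioglycollate and IL-4R KO minus wild type. The members, pairs, cluster partners, marker lists and named miRNAs (all members, the partners, and the 5 probes most like the family) were chosen with earlier results of these data known. Alternatives covered background correction, offset, normalization, summary of spots, a filter on dim probes, the arrays fitted, slide, replicate number, and each array left out in turn. Array position on the slide was added after seeing the data.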

Additional observations from a re-analysis of the deposited data

Results flagged for a closer look

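miR-98 on nematode IL-4R KO replicate 2 had a log2 intensity of 6.78, far above the other 3 arrays of its group, which lay between 6.26 and 6.29 (Dixon's test at the 95% level, of 18 member and group combinations tested, of which chance flags about 1 in 20). Its 3 spots there had net signals of 42.5, 23.8 and 242 intensity units. With the median of the spots in place of their mean the value was 6.38, against 6.26 to 6.31 on the other arrays. The log2 fold change of miR-98, IL-4R KO minus wild type after nematode, was 0.23 with this array, 0.14 with the median of spots and 0.09 without the array.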

How the results depend on the processing

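Over 25 alternatives, 957 of 1020 values of single members kept their direction and their side of the threshold, and 2 newly passed. Direction turned in 61, 10 of them from a reported log2 fold change of 0.2 or more in size. No member passed as reported, so no call could be lost. The direction of let-7i between genotypes and of let-7c between elicitations turned in none of the alternatives. Signal over blank limits let-7d*, let-7e, let-7f and miR-98, whose differences stand near blank, and nematode wild type replicate 4 decides the genotype differences of let-7b and let-7d after nematode. Deviations of same-numbered arrays correlated at -0.24 to 0.32, which alone does not settle whether replicate numbers pair the samples. With the replicate block, let-7i averaged over elicitations gave 1.01 (limma adjusted p = 0.209). Slide as a random block had an estimated correlation of -0.02 and changed no direction. Most slides hold arrays of 1 group only, so this fit cannot tell a slide effect from a group difference.

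The values that turned, and the counts that moved by over 1.5 times, were as follows, and the cause was not tested. With median scaling, nematode minus thioglycollate in wild type gave 0.22 for let-7b, 0.17 for let-7d and 0.16 for let-7i, nematode minus thioglycollate in IL-4R KO gave 0.049 for let-7g, IL-4R KO minus wild type after thioglycollate gave 0.34 for let-7b and 0.0081 for miR-98 and IL-4R KO minus wild type averaged gave 0.24 for let-7c. Median scaling gave a count of probes past the threshold of 5 for nematode minus thioglycollate averaged and 4 for the interaction. Median scaling moved the pair difference to 0.086 for let-7d minus let-7f (elicitation). With cyclic loess, nematode minus thioglycollate in wild type gave 0.073 for let-7b, 0.011 for let-7d and 0.038 for let-7i, nematode minus thioglycollate in IL-4R KO gave 0.032 for let-7g and IL-4R KO minus wild type after nematode gave -0.064 for let-7d and 0.042 for let-7d*. Cyclic loess gave a count of probes past the threshold of 1 for nematode minus thioglycollate in wild type, 10 for nematode minus thioglycollate in IL-4R KO and 14 for IL-4R KO minus wild type after nematode. Cyclic loess put let-7i past it, a count of 1 for IL-4R KO minus wild type averaged. Cyclic loess moved the pair difference to -0.15 for let-7d minus let-7d* (genotype) and -0.052 for let-7d minus let-7f (genotype). With no background correction, nematode minus thioglycollate in wild type gave 0.0009 for let-7e and 0.004 for let-7f, nematode minus thioglycollate in IL-4R KO gave 0.026 for let-7d*, 0.014 for let-7e and -0.034 for miR-98, IL-4R KO minus wild type after nematode gave 0.070 for let-7d*, -0.048 for let-7e and -0.12 for let-7f, IL-4R KO minus wild type after thioglycollate gave 0.056 for let-7b and -0.061 for let-7e, IL-4R KO minus wild type averaged gave 0.011 for let-7c and the interaction gave 0.067 for let-7i. No background correction gave a count of probes past the threshold of 5 for nematode minus thioglycollate in wild type, 3 for nematode minus thioglycollate in IL-4R KO, 5 for nematode minus thioglycollate averaged and 0 for the interaction. No background correction moved the pair difference to -0.12 for let-7d minus let-7d* (genotype), 0.012 for let-7f minus miR-98 (elicitation) and 0.0098 for let-7f minus miR-98 (genotype). With offset 20, IL-4R KO minus wild type after nematode gave 0.026 for let-7d* and the interaction gave 0.049 for let-7i. Offset 20 gave a count of probes past the threshold of 10 for IL-4R KO minus wild type after nematode. Offset 20 moved the pair difference to -0.080 for let-7d minus let-7d* (genotype). With plain subtraction, IL-4R KO minus wild type after nematode gave 0.28 for let-7d* and the interaction gave 0.17 for let-7i. Plain subtraction gave a count of probes past the threshold of 3 for IL-4R KO minus wild type after thioglycollate and 0 for the interaction. Plain subtraction moved the pair difference to -0.51 for let-7d minus let-7d* (genotype). With median of spots, nematode minus thioglycollate in IL-4R KO gave -0.040 for miR-98, IL-4R KO minus wild type after nematode gave 0.13 for let-7d* and the interaction gave 0.024 for let-7i. Median of spots gave a count of probes past the threshold of 9 for nematode minus thioglycollate in wild type. Median of spots moved the pair difference to -0.099 for let-7d minus let-7d* (genotype), 0.033 for let-7f minus miR-98 (genotype) and 0.017 for let-7d minus let-7f (elicitation). The filter to probes above blank spots gave a count of probes past the threshold of 8 for nematode minus thioglycollate in wild type and 10 for IL-4R KO minus wild type after nematode. The fit on only the groups compared gave a count of probes past the threshold of 0 for nematode minus thioglycollate in wild type and 11 for nematode minus thioglycollate in IL-4R KO. With the replicate block, nematode minus thioglycollate in wild type gave 0.004 for let-7f. The replicate block gave a count of probes past the threshold of 2 for IL-4R KO minus wild type after thioglycollate. With array position on the slide as a factor, IL-4R KO minus wild type after thioglycollate gave 0.012 for miR-98. Array position on the slide as a factor gave a count of probes past the threshold of 2 for IL-4R KO minus wild type after thioglycollate.

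Leaving out each array in turn gave these ranges of lowest to highest value, where a direction turned or a count moved. Nematode minus thioglycollate in wild type was -0.12 to 0.046 for let-7e, -0.51 to 0.15 for let-7b, -0.14 to 0.042 for let-7f and -0.51 to 0.11 for let-7i. IL-4R KO minus wild type after thioglycollate was -0.14 to 0.19 for let-7c, -0.12 to 0.035 for miR-98 and -0.12 to 0.15 for let-7b. The interaction was -0.44 to 0.27 for let-7i. Nematode minus thioglycollate in IL-4R KO was -0.080 to 0.13 for miR-98 and -0.14 to 0.014 for let-7g. IL-4R KO minus wild type after nematode was -0.19 to 0.22 for let-7d*, -0.0009 to 0.37 for let-7d and -0.098 to 0.080 for let-7f. IL-4R KO minus wild type averaged was -0.22 to 0.0099 for let-7c. The count of all probes past the threshold was 0 to 7 for the interaction, 3 to 8 for nematode minus thioglycollate in IL-4R KO, 2 to 8 for nematode minus thioglycollate in wild type, 8 to 17 for nematode minus thioglycollate averaged, 6 to 12 for IL-4R KO minus wild type after nematode and 1 to 5 for IL-4R KO minus wild type after thioglycollate. The count of members past it was 0 to 1 for IL-4R KO minus wild type averaged, the 1 being let-7i without nematode IL-4R KO replicate 2. The pair difference was -0.11 to 0.13 for let-7d minus let-7d* (genotype), -0.076 to 0.046 for let-7f minus miR-98 (genotype), -0.003 to 0.46 for let-7b minus let-7c (genotype) and -0.097 to 0.041 for let-7f minus miR-98 (elicitation). Without nematode wild type replicate 4 the counts of all probes were at the upper end of their range except for IL-4R KO minus wild type after thioglycollate, where it was 2 and the highest count, 5, came without nematode IL-4R KO replicate 2.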

Other observations

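The arrays carry another 12 probes named for let-7 of other species or of no species, which hold no mouse name. Of these, 2 stood out: one that carries 11 names, the first of them human let-7a, and one named let-7a-e were above blanks on all 14 arrays, with mean log2 intensities of 9.62 and 9.72. Of the 12, 10 were above blanks on at least 9 arrays and 2 on 1 array. IL-4R KO minus wild type gave -0.24 to 0.46 over the 12 after nematode, with 7 positive, and -0.35 to 0.62 after thioglycollate, with 8 positive. The largest of these, 0.62, belonged to the probe named for let-7e of Xenopus tropicalis, whose profile was closest to that of mouse let-7i (r = 0.84 over 14 arrays). The lowest in each elicitation, -0.24 and -0.35, belonged to the bright human let-7a probe, opposite in direction to let-7i. The let-7a-e probe gave -0.004 and 0.04. Which mouse RNAs these probes bind was not tested. Nematode minus thioglycollate gave -0.66 to 0.38 in wild type and -0.49 to 0.37 in IL-4R KO. The human let-7a probe gave 0.25 and 0.37 there, and the let-7a-e probe 0.38 and 0.33.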
